A study of Mus musculus with 6 samples.

Results

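De novo lipogenesis turns citrate into fatty acids, and the 10 genes described here follow that route with its regulators: Srebf1 and Mlxipl, which encode the transcription factors SREBP-1 and ChREBP, the citrate carrier Slc25a1, the enzymes Acly, Acaca, Acacb, Fasn, Scd1 and Me1, and the regulatory protein gene Thrsp. They were chosen by gene symbol, and all 10 were found among the 40803 mouse genes of the count table. In liver, citrate leaves the mitochondrion and is split into acetyl-CoA, which is carboxylated to malonyl-CoA, built up to palmitate and then desaturated, with NADPH as the reductant. SREBP-1c is a membrane-bound factor whose transcription follows insulin and LXR and whose release is blocked by INSIG proteins, while ChREBP responds to glucose metabolites, and lipogenic enzymes are targets of both.

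Liver RNA of 6 male C57BL/6J mice was sequenced, 1 library per mouse. In the control group, rAAV8-sh-scramble (n = 3, rAAV8-Scramble in the labels), an adeno-associated virus that enters hepatocytes carried a scrambled short hairpin RNA, and in the rAAV8-sh-Hnf1aos1 group (n = 3, rAAV8-Hnf1aos1 in the labels) it carried a hairpin against the lncRNA Hnf1aos1. The groups are called scramble and knockdown below. Both hairpins were driven by the U6 promoter, both vectors also expressed EGFP from the CAG promoter, and all mice were injected through the tail vein at about 6 weeks of age, fed normally and examined 4 weeks later. U6 is active in many cell types, so the hairpin was not restricted to hepatocytes by its promoter.

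Gene totals per library were 14704746 to 16532510 counts in the scramble group and 18021614 to 19462398 in the knockdown group, so that counting error is small for genes with as many counts as these. The targeted gene, Hnf1aos1, had 512, 491 and 620.3 in scramble replicates 1, 2 and 3 and 278, 258 and 433 in knockdown replicates 1, 2 and 3 as normalized counts, which are counts scaled to a common library size by edgeR's TMM method. Its groups did not overlap, its knockdown mean was 59.8% of the scramble mean, and it was not called, which here means that its adjusted p was not under 0.05 (log2 fold change −0.74, adjusted p = 0.0625, edgeR; 0.000261 without knockdown replicate 3, and 0.113 to 0.218 without any other single library). Hnf1aos1 is an antisense RNA, and the strand setting of the counting is not given in the sources used here, so reads of the opposite strand may be among its counts. Of 9 hepatocyte markers 1, Tat, was called, lower, and their summed level was 73683 to 79316 TPM (reads per transcript length, scaled to a common total) in the scramble and 70600.0 to 83875 TPM in the knockdown libraries. Their log2 fold changes by edgeR were above 0 in 6 of the 9. DESeq2, the tool of the study, called 3 of the 9, Tat lower and Apoa1 and Apob higher.

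The promoters of the regulators and of the fatty acid synthase and citrate carrier genes are shown first. Both regulator genes were called lower, and Fasn and Slc25a1 were not called, at log2 fold changes of −0.58 and 0.0048. The value of Fasn lay close to that of Srebf1, at −0.56, and a difference between Fasn and the regulator genes was not tested. RefSeq (GRCm38.p6) gave 13 promoters for 9 of the 10 genes, and the 250 bases before each start were searched on both strands for a sterol regulatory element (TCACNCCAC), the E-box CACGTG, the NF-Y box CCAAT and the Sp1 box GGGCGG. Scd1 was not matched. Matches are in capitals, each sequence is written 5′ to 3′ on the strand of its gene, and starts are numbered in the direction of transcription.
Srebf1 start 1, chr11:60222582-60222831, − strand: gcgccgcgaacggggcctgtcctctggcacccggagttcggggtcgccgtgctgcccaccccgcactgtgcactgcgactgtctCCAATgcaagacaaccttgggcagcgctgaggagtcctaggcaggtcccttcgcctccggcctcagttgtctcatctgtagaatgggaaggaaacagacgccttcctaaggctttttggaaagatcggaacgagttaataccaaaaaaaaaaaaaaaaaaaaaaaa
Srebf1 start 2, chr11:60220628-60220877, − strand: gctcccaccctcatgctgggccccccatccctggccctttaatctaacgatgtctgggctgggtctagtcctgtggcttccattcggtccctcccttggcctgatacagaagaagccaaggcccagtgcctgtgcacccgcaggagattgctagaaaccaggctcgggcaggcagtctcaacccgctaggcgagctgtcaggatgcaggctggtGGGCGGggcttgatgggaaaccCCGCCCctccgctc
Srebf1 start 3, chr11:60210472-60210721, − strand: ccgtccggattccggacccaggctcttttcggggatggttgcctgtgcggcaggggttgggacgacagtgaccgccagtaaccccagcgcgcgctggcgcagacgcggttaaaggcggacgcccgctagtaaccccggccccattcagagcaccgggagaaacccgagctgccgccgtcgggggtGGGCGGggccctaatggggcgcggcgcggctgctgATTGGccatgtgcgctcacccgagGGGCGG
Mlxipl start 1, chr5:135089640-135089889, + strand: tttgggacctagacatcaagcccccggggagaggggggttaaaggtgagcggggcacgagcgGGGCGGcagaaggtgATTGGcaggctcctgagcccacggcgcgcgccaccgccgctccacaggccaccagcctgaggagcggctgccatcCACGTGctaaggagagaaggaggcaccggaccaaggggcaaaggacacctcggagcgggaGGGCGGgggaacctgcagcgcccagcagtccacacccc
Mlxipl start 2, chr5:135106641-135106890, + strand: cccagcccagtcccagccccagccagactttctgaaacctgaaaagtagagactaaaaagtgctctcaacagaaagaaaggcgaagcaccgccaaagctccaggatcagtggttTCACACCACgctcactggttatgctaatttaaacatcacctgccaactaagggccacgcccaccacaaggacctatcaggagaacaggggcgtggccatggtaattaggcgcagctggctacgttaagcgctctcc
Fasn, chr11:120824548-120824797, − strand: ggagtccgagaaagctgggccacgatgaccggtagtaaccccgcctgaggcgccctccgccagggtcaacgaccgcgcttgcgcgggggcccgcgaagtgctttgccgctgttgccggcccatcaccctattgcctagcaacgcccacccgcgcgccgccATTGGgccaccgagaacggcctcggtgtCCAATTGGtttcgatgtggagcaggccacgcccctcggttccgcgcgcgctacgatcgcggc
Slc25a1, chr16:17928220-17928469, − strand: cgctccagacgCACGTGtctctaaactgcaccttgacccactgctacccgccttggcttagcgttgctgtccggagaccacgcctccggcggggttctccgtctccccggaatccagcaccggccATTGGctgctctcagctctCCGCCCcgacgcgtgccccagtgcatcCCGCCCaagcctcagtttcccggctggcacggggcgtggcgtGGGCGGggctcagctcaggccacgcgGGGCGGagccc

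The windows of Srebf1 start 1, Mlxipl start 1, Fasn and Slc25a1 lie before the gene as GENCODE annotates it, and those of Srebf1 starts 2 and 3 and Mlxipl start 2 lie inside the gene, between exons. Among the windows not printed, that of Acly lies before the gene, and those of Acaca, Acacb and Me1 start 2 lie inside it. GENCODE exons cover 9 bases of the Acacb window, 39 of the Me1 start 1 window and 180 of the Thrsp window, with both NF-Y matches of Thrsp in the exonic part. The sterol regulatory element was matched in 1 of the 13 promoters, Mlxipl start 2, where the letters were TCACACCAC, against 1.05% of all 32851 mouse promoters of that length. The E-box, the core of the ChREBP site, was matched in 2 of the 13, Mlxipl start 1 and Slc25a1, against 6.02% of all promoters. The NF-Y box was matched in 8 of the 13 (all promoters: 33.8%), with 3 matches in Fasn, of which 2 overlap as CCAATTGG, and the Sp1 box in 6 of the 13 (all promoters: 32.7%). A match describes these letters, and no binding was measured. The counts are per gene, so transcripts from the separate starts of Srebf1, which encode SREBP-1a and SREBP-1c, were not told apart, nor were those from the starts of Mlxipl.

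After knockdown, 4 of the 10 genes fell: both regulator genes, Srebf1 and Mlxipl, and the enzyme genes Scd1 and Me1. None of the 10 rose. A gene is called when its adjusted p is under 0.05 by edgeR's quasi-likelihood test, with p-values adjusted by Benjamini-Hochberg over the 16327 genes tested, of which 6.32% were called, 3.23% lower and 3.09% higher. All 10 genes were tested, and 7 had an unadjusted p under 0.05 (23.4% of all genes tested). In 6 of the 10 the groups did not overlap, which held for 28.9% of all genes tested and, with the knockdown group lower, for 13.7%. The median log2 fold change (knockdown over scramble) was −0.57 over the 10 genes and −0.00040 over all genes tested, and none of the 10 passed the study's limit of 1 on that scale. DESeq2, the tool of the study, called 7 of the 10, all lower (6.96% of its genes called, 3.39% lower); without the low-count filter edgeR called the same number (6.92% of genes called). The same 4 genes were called in all 8 alternatives that kept the 6 libraries. With 1 library left out edgeR called 0 of the 10 without scramble replicate 3 or knockdown replicate 2, where 103 and 323 genes were called in the whole table, 2 without scramble replicate 2 and 6 without knockdown replicate 1 (3.77% of genes called in that fit). The study itself singled out Srebf1, Scd1 and Fasn, among others, on these libraries, so their direction is not independent evidence. It also reported Fasn and Srebf1 as lower by RT-qPCR and the ACLY protein as lower by proteomics, and those measurements were not examined here. In bulk liver, fewer cells of a type and less RNA per cell cannot be told apart.

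**Figure D1:**
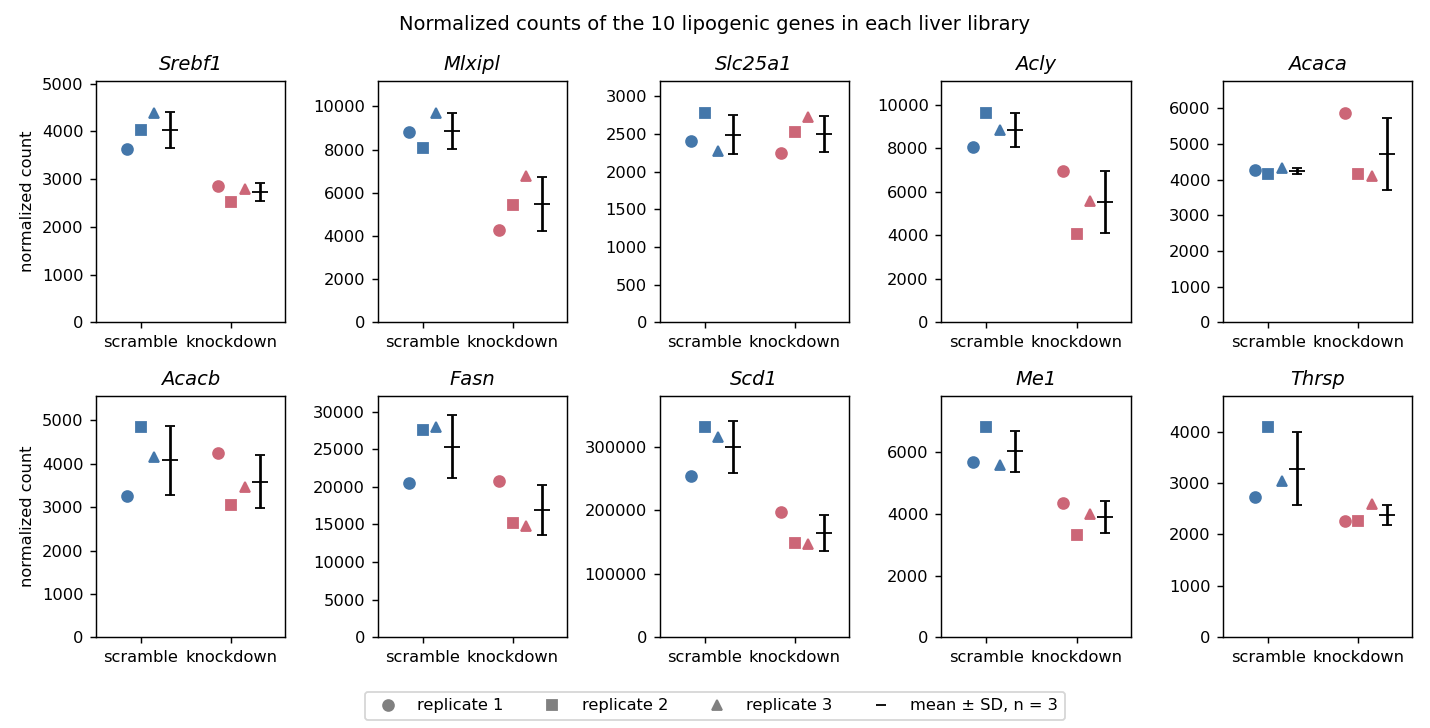
Normalized counts (y axis, from 0) of the 10 genes in the 3 scramble (blue) and 3 knockdown (red) libraries, with the replicate number as the symbol and the mean ± SD in black. The groups are apart in Srebf1, Mlxipl, Acly, Scd1, Me1 and Thrsp, and in Fasn knockdown replicate 1, at 20729, lies above scramble replicate 1, at 20533.

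Srebf1 (chromosome 11, 60199089 to 60222581, − strand, GRCm38 as for all positions below) fell to 67.8% of its scramble mean. Its normalized counts were 3641, 4035 and 4396 in scramble replicates 1, 2 and 3 and 2866, 2519 and 2801 in knockdown replicates 1, 2 and 3. The highest knockdown library lay under the lowest scramble library, and the spread within a group was small, with the highest library 1.21 times the lowest in the scramble and 1.14 times in the knockdown group. The mean went from 4024 ± 377 to 2729 ± 184 (SD, n = 3 each), a log2 fold change of −0.56 (standard error 0.101, 95% interval −0.78 to −0.34) with an adjusted p of 0.0111 from edgeR's test. The call was lost without scramble replicate 3 (adjusted p = 0.0838, edgeR) or knockdown replicate 2 (adjusted p = 0.0577, edgeR).

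Mlxipl (chromosome 5, 135089890 to 135138382, + strand), the ChREBP gene, fell as well, with a wider spread among the knockdown mice. The libraries held 8827, 8059 and 9712 in scramble replicates 1, 2 and 3 and 4278, 5409.9 and 6761 in knockdown replicates 1, 2 and 3, as normalized counts. Knockdown replicate 1 was the lowest of all 6 libraries for Mlxipl, whereas it was the highest knockdown library for Srebf1. The mean went from 8866 ± 828 to 5483 ± 1243 (SD, n = 3 each), which left 61.8% of the scramble mean, and the log2 fold change was −0.69 (standard error 0.154, 95% interval −1.04 to −0.35) with an adjusted p of 0.0303 from edgeR's test. Of the 4 calls this one was lost most often when 1 library was left out: edgeR called it in 2 of the 6 such fits, those without knockdown replicate 1 or 3, and the adjusted p was 0.0711, 0.0555 and 0.139 without scramble replicates 1, 2 and 3 and 0.104 without knockdown replicate 2.

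The ratio of Srebf1 to Mlxipl within a library, on the log2 scale of normalized counts, was −1.14 ± 0.14 (SD, n = 3) in the scramble and −0.98 ± 0.361 (SD, n = 3) after knockdown, and the groups overlapped (p = 0.6 by exact permutation, two-sided, 0.6 after adjustment over 4 pairs of genes). An unequal change of the regulator genes was not detectable with 3 mice a group.

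At the start of the route, Slc25a1, which carries citrate out of the mitochondrion, and Acly, which splits it into acetyl-CoA and oxaloacetate, did not pass the test, Slc25a1 with overlapping groups and Acly with every knockdown library lower. Slc25a1 (chromosome 16, 17925223 to 17928219, − strand) had normalized counts of 2415, 2787 and 2279 in scramble replicates 1, 2 and 3 and 2253, 2529.6 and 2723 in knockdown replicates 1, 2 and 3. Both groups covered nearly the same range, the means were 2494 ± 263 and 2502 ± 236 (SD, n = 3 each), and the 95% interval of the log2 fold change ran from −0.23 to 0.24 around a value of 0.0048.

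Acly (chromosome 11, 100476353 to 100528000, − strand) had normalized counts of 8079.7, 9642 and 8816 in scramble replicates 1, 2 and 3 and 6942, 4070.0 and 5598 in knockdown replicates 1, 2 and 3. No knockdown library reached the lowest scramble library, but the knockdown values were spread over a 1.71-fold range, with replicate 2 lowest. With means of 8846 ± 781 and 5537 ± 1437 (SD, n = 3 each), the log2 fold change was −0.68 (standard error 0.175, 95% interval −1.07 to −0.28) and the adjusted p from edgeR's test was 0.0534, just above the limit. DESeq2 called Acly (adjusted p = 0.00125 from DESeq2, with 0.00125 to 0.0882 over the 8 alternatives that kept all 6 libraries); leaving out knockdown replicate 1, edgeR did too (adjusted p = 0.00905). Within libraries, the log2 ratio of Acly to Slc25a1 was 1.83 ± 0.11 (SD, n = 3) in the scramble and 1.12 ± 0.473 (SD, n = 3) after knockdown, with no overlap (p = 0.1 by exact permutation, two-sided, the smallest that 3 against 3 allow, and 0.2 over the 4 pairs).

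The carboxylase genes, whose enzymes make malonyl-CoA, were not called and overlapped between the groups. Acaca (chromosome 11, 84129672 to 84401651, + strand) encodes the cytosolic enzyme that supplies fatty acid synthesis, and its normalized counts were 4273, 4161 and 4326 in scramble replicates 1, 2 and 3 and 5884, 4157 and 4104 in knockdown replicates 1, 2 and 3. Apart from knockdown replicate 1, the highest of the 6, all libraries lay between 4104 and 4326. The log2 fold change of Acaca was 0.15 (standard error 0.134, 95% interval −0.15 to 0.44), with an adjusted p of 0.542 from edgeR's test.

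Acacb (chromosome 5, 114146535 to 114250761, + strand) encodes the carboxylase at the mitochondrial membrane, whose malonyl-CoA restrains fatty acid entry into mitochondria. For Acacb the normalized counts were 3253, 4841 and 4167 in scramble replicates 1, 2 and 3 and 4258, 3046 and 3461 in knockdown replicates 1, 2 and 3. The lowest and the highest of the 3 scramble libraries enclosed 2 of the 3 knockdown libraries, and the log2 fold change was −0.19 (standard error 0.163, 95% interval −0.55 to 0.18) with an adjusted p of 0.528 from edgeR's test. For neither gene did DESeq2 or any fit with 1 library left out make a call. The log2 ratio of Acacb to Acaca within a library was −0.076 ± 0.306 (SD, n = 3) in the scramble and −0.39 ± 0.123 (SD, n = 3) after knockdown (p = 0.2 by exact permutation, two-sided, 0.267 over the 4 pairs).

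Fasn (chromosome 11, 120805846 to 120824547, − strand) encodes fatty acid synthase, which builds palmitate from malonyl-CoA and NADPH. In normalized counts, Fasn was at 20533, 27572 and 27916 in scramble replicates 1, 2 and 3 and 20729, 15145 and 14854 in knockdown replicates 1, 2 and 3. Scramble replicate 1 and knockdown replicate 1 had nearly the same value, the other scramble libraries were above them and the other knockdown libraries below. The means were 25340.1 ± 4166 and 16909.5 ± 3311 (SD, n = 3 each), the log2 fold change was −0.58 (standard error 0.161, 95% interval −0.94 to −0.23), and the adjusted p from edgeR's test was 0.0586, so that Fasn was not called. DESeq2 called it (adjusted p = 0.00418 from DESeq2, with 0.00135 to 0.125 over those 8 alternatives), as did edgeR without scramble replicate 1 (adjusted p = 0.0369) or without knockdown replicate 1 (adjusted p = 0.0144).

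Scd1 (chromosome 19, 44394455 to 44407879, − strand) encodes the desaturase that makes oleate and palmitoleate, and it had the largest log2 fold change of the 10 (without knockdown replicate 3, Mlxipl was at −0.87 and Scd1 at −0.79). Its normalized counts were 253707, 330585 and 315014 in scramble replicates 1, 2 and 3 and 196929, 148656 and 147448 in knockdown replicates 1, 2 and 3. All knockdown libraries lay below all scramble libraries, and replicate 1 was the lowest scramble and the highest knockdown library. The knockdown mean was 54.8% of the scramble mean, and the log2 fold change was −0.87 (standard error 0.154, 95% interval −1.20 to −0.53) with an adjusted p of 0.0111 from edgeR's test. The call was lost without scramble replicate 3 (adjusted p = 0.0793, edgeR) or knockdown replicate 2 (adjusted p = 0.0554, edgeR). The log2 ratio of Scd1 to Fasn was 3.63, 3.58 and 3.50 in scramble replicates 1, 2 and 3 and 3.25, 3.30 and 3.31 in knockdown replicates 1, 2 and 3. Those ratios did not overlap (p = 0.1 by exact permutation, two-sided, the smallest that 3 against 3 allow, and 0.2 over the 4 pairs), and the spread within a group was narrower than that of either gene.

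Malic enzyme, encoded by Me1 (chromosome 9, 86581371 to 86695953, − strand), supplies NADPH to fatty acid synthesis. The normalized counts of Me1 were 5692, 6808 and 5593 in scramble replicates 1, 2 and 3 and 4349.5, 3323 and 3999.7 in knockdown replicates 1, 2 and 3. The groups were apart, with knockdown replicate 2 lowest and scramble replicate 2 highest. The mean went from 6031 ± 675 to 3891 ± 522 (SD, n = 3 each), a log2 fold change of −0.63 (standard error 0.122, 95% interval −0.90 to −0.36) with an adjusted p of 0.0149 from edgeR's test. Without replicate 2 or 3 of the scramble group or replicate 2 of the knockdown group, the adjusted p from edgeR's test was 0.0554, 0.0742 and 0.0632, and the call was lost.

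Thrsp (chromosome 7, 97412938 to 97417730, − strand), also known as Spot 14, is a thyroid hormone responsive gene of lipogenic tissues whose product acts with the carboxylase regulator Mid1ip1. Its normalized counts were 2723, 4084 and 3038 in scramble replicates 1, 2 and 3 and 2271, 2261 and 2599 in knockdown replicates 1, 2 and 3. The knockdown libraries were close together and below the scramble libraries, of which replicate 2 stood highest. The log2 fold change was −0.47 (standard error 0.142, 95% interval −0.78 to −0.15), and Thrsp was not called (adjusted p = 0.0803 from edgeR's test; 0.0306 from DESeq2, with 0.00206 to 0.263 over those 8 alternatives). Without scramble replicate 1 edgeR called it (adjusted p = 0.0477).

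**Figure D2:**
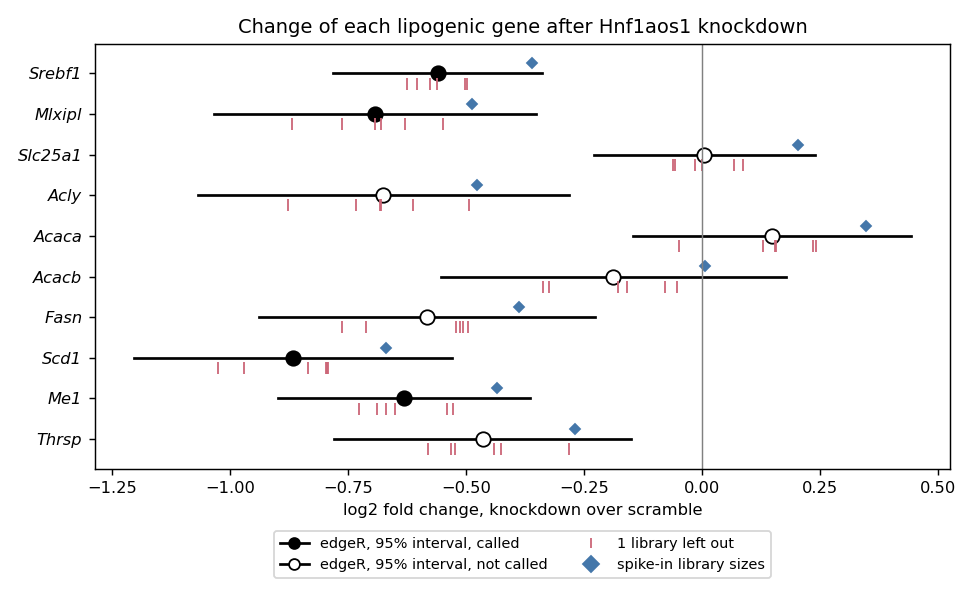
Log2 fold change (x axis, knockdown over scramble) of each gene (y axis) from edgeR with its 95% interval, filled where called. Red ticks are the 6 fits with 1 library left out, and blue diamonds the fit with library sizes from the spike-ins, in which Slc25a1 lies at 0.20 and Scd1 at −0.67.

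The size of these changes depends on the scaling. The count table lists 92 ERCC spike-in RNAs, which took 1.38 to 1.52% of the counts in the scramble and 1.18 to 1.24% in the knockdown libraries. With library sizes from the spike-ins the median over all genes tested moved up by 0.20. Srebf1, Mlxipl, Scd1 and Me1 were then at −0.36, −0.49, −0.67 and −0.43 and were called again, Slc25a1 lay at 0.20, Acaca at 0.35 and Acacb at 0.0069, with the last of these changing sign. Of the genes called over the whole table, 48.9% were higher with TMM, 89.4% with the spike-ins and 30.4% with plain library totals.

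Levels of different genes can be compared per length, for which the TPM values of the authors were used. Scd1 was the most abundant of the 10, with 8081 ± 1144 TPM (SD, n = 3) in the scramble and 4216 ± 876 TPM (SD, n = 3) in the knockdown group, and it made up 82.7% ± 0.733 (SD, n = 3) of the summed TPM of the 10 genes in the scramble and 78.2% ± 2.4 (SD, n = 3) in the knockdown group. Among all features its rank by TPM was 20, 14 and 15 in scramble replicates 1 to 3 and 32, 43 and 38 in knockdown replicates 1 to 3.

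In the scramble group the other 9 genes followed, in TPM (mean ± SD, n = 3), with Thrsp at 387 ± 78.3 and Fasn at 317 ± 56, which overlapped, then Me1 at 215 ± 19.9, Mlxipl at 207 ± 25.2 and Slc25a1 at 193 ± 16, which overlapped as neighbours. Acly at 147 ± 12.6 and Srebf1 at 107 ± 12.6 each stood apart from the genes next to them. The carboxylase genes were lowest and overlapped, Acacb at 52.4 ± 10 and Acaca at 52.1 ± 2.45. The summed TPM of all 10 genes was 8244 to 10529.7 in the scramble and 4751 to 6483 in the knockdown libraries, and without Scd1 it was 1483 to 1815 and 1039.7 to 1256. Slc25a1 moved from the sixth place in the order of scramble means to the fourth in that of knockdown means, above Me1 and Mlxipl. How TPM was computed is not given in the sources used here, and with the exonic lengths of GENCODE in place of the authors' lengths Thrsp moved from the second to the sixth place in the scramble group, Acly from the seventh to the third, and Fasn, Mlxipl, Me1 and Slc25a1 by 1 place each.

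**Figure D3:**
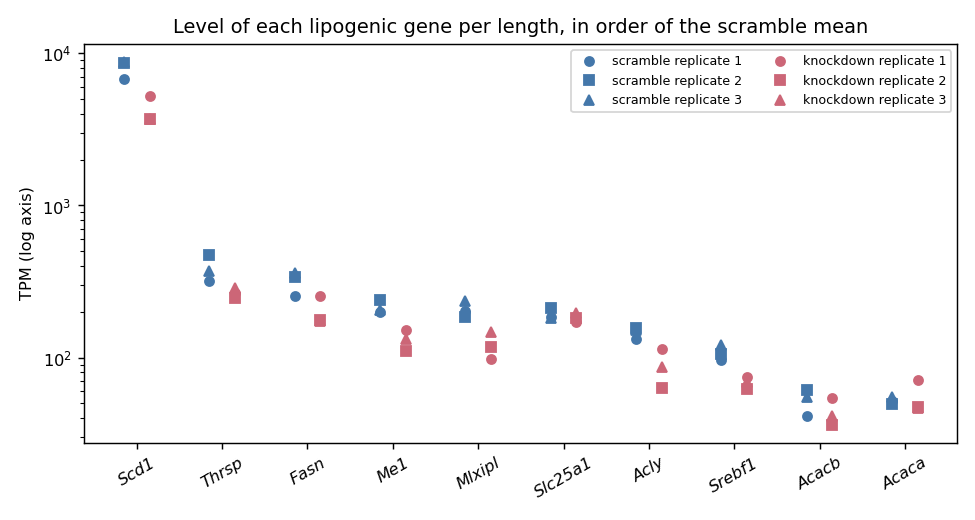
TPM (y axis, log scale) of each gene in every library, ordered by the scramble mean, blue for scramble and red for knockdown, with the replicate as the symbol. Scd1 lies between 3710.0 and 8767 TPM, above all others, and the groups overlap in Slc25a1, Acaca, Acacb and Fasn.

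Single mice differed in the same way for several of the genes. Scramble replicate 1 was the lowest scramble library in 6 of the 10 genes and the highest in none, and knockdown replicate 1 was the highest knockdown library in 7 of the 10, with Mlxipl and Slc25a1 as the genes in which it was lowest. On the log2 scale, centred on the mean of each gene, the profiles of Acly and Me1 over the 6 libraries were the most alike among the 45 pairs (root mean square difference 0.126), followed by Srebf1 and Me1 (0.14) and by Fasn and Scd1 (0.149), and those of Mlxipl and Acaca were the least alike (0.551). These differences are descriptions over 6 libraries that share the group difference.

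Among 6635 genes with a mean log2 CPM of 4 or more, by the same measure over the 6 libraries, the profiles nearest to Srebf1 included those of Pard3bos1 (0.0429), Sox5 (0.0674), Srsf4 (0.0784) and Mid1ip1 (0.0898). Mid1ip1, a regulator of the carboxylases, is in the lists below. Nearest to Scd1 were Elovl5 (0.0746), Gm32063 (0.113), Pgm3 (0.141), Prlr (0.142) and Fasn (0.149), and nearest to Fasn Pgm3 (0.0911), Atosa (0.12), Neb (0.138), Gm33047 (0.139) and Prlr (0.142). Srebf1 was number 9 in the order of nearness to Fasn, and Scd1 number 7. In the order of nearness to Srebf1 the lipogenic genes came later, with Me1 first among them at number 71, Fasn at 106 and Scd1 at 494.

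**Figure D4:**
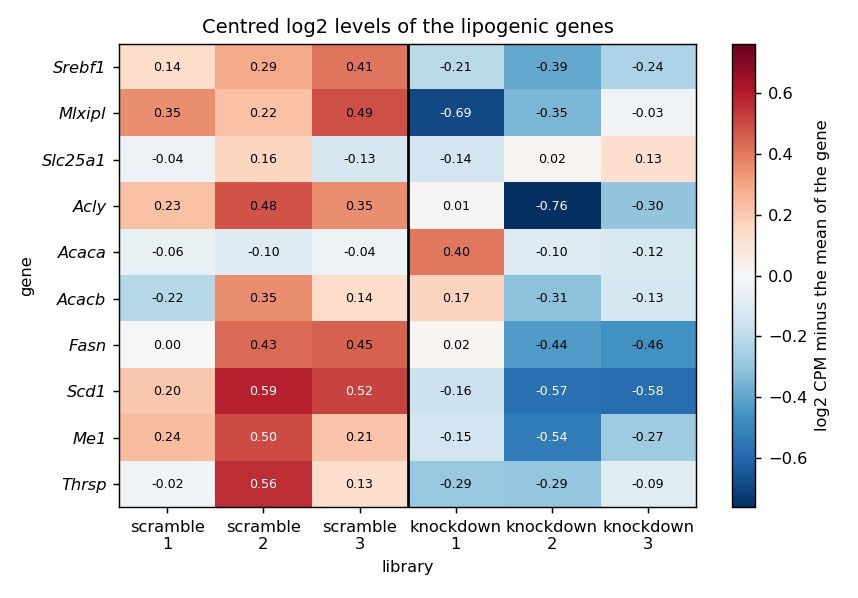
Log2 CPM of each gene (rows) in each library (columns) minus the mean of the gene over the 6 libraries, with blue below and red above that mean. Knockdown replicate 1 is at 0.40 for Acaca and at −0.69 for Mlxipl, and in Fasn and Scd1 scramble replicates 2 and 3 are highest and knockdown replicates 2 and 3 lowest.

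Around the route, 11 lists with 93 further genes were followed in the same fit (SE, standard error), and 7 of the 93 (7.53%, against 6.32% of all genes tested) were called, 5 lower and 2 higher. In the list of elongation, desaturation and esterification, 2 of 10 genes fell and none rose, with 9 of 10 log2 fold changes below 0 (7 with spike-in library sizes) and a median of −0.43. The elongase Elovl5 fell from 11980.1 ± 2138 to 6709 ± 1689 normalized counts (SD, n = 3 each), a log2 fold change of −0.84 ± 0.193 (SE; edgeR, adjusted p = 0.0409), and Elovl6, the elongase that turns palmitate into stearate, fell from 2677 ± 93.2 to 1989.6 ± 218 normalized counts (SD, n = 3 each), a log2 fold change of −0.43 ± 0.098 (SE; edgeR, adjusted p = 0.0303). The other desaturases were not called by edgeR, with log2 fold changes of −0.42 for Fads1, −0.34 for Fads2 and −0.48 for Scd2, whereas DESeq2 called 4 of the 10, Fads1 (adjusted p = 0.03, DESeq2) and the acyltransferase gene Gpam (adjusted p = 0.0148, DESeq2) besides the elongases. edgeR did not call Elovl5 with library totals or without a low-count filter, nor Elovl6 with spike-in library sizes. Both calls were lost without replicate 2 or 3 of the scramble group or replicate 2 of the knockdown group, each of which left 0 of the 10 called, that of Elovl5 also without knockdown replicate 3 and that of Elovl6 without scramble replicate 1.

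Genes that act on SREBP-1 before its targets were not called. None of 11 genes of its activation and transcription passed the test, 2 had an unadjusted p under 0.05, and 8 were above 0. With spike-in library sizes all 11 were above 0 and 3 were called, where 3393 genes were called in the whole table. edgeR also called 1 of the 11 without a low-count filter (6.92% of genes called) and 1 without knockdown replicate 3. The list has the escort protein gene Scap, at −0.042, the retention protein genes Insig1 and Insig2, at 0.040 and −0.012, and the LXR alpha gene Nr1h3, at 0.19 on the log2 scale, and DESeq2 called 1 of the 11, Rxra, the shared partner of LXR, at 0.35 ± 0.105 (SE; edgeR, adjusted p = 0.0686). Among 6 targets of LXR, 1 was called: Abca1, a cholesterol exporter, rose from 9531 ± 538 to 13904 ± 1248 normalized counts (SD, n = 3 each), a log2 fold change of 0.54 ± 0.106 (SE; edgeR, adjusted p = 0.0154), and it lost this call without replicate 2 or 3 of the scramble group or replicate 2 of the knockdown group. The study also reported Abca1 as higher on these libraries and by RT-qPCR, so its direction is not independent evidence. The other 5 targets ran from −0.28 to 0.011.

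Of 13 partners and glycolytic targets of ChREBP, 11 were below 0 (6 with spike-in library sizes), with a median log2 fold change of −0.17. edgeR called 1 of the 13, lower, which is not reported here, and DESeq2 also called 1. An unadjusted p under 0.05 was found for 3 of the 13. Pklr, the liver pyruvate kinase gene and a direct target of ChREBP, was at −0.17 (standard error 0.172) and was not called. The 2 genes above 0, the ketohexokinase gene Khk at 0.046 and the ChREBP partner gene Mlx at 0.13, were not called either. Among 9 genes of carboxylase control, Mid1ip1, whose product promotes carboxylase polymerization, fell from 923 ± 103 to 646 ± 85.5 normalized counts (SD, n = 3 each), a log2 fold change of −0.51 ± 0.117 (SE; edgeR, adjusted p = 0.0294). That call was lost with spike-in library sizes and without replicate 2 or 3 of the scramble group or replicate 1 or 2 of the knockdown group, and the 8 others, with the AMP-activated kinase subunits among them, were not called.

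No gene was called among 5 of citrate and acetyl-CoA supply (0 at an unadjusted p under 0.05), 6 of NADPH supply (1), 7 of insulin signalling (1) and 4 of thyroid hormone action (1), and DESeq2 called 0 in each of these lists. In the pentose phosphate route, which supplies NADPH as Me1 does, G6pdx was at −0.26 and Pgd at 0.35 on the log2 scale. Of 9 genes that rise in fasting, all were below 0 (6 with spike-in library sizes) and 1 was called, Pdk4, a kinase that shuts off pyruvate dehydrogenase, which fell from 573 ± 97.9 to 175 ± 14.9 normalized counts (SD, n = 3 each), a log2 fold change of −1.71 ± 0.136 (SE; edgeR, adjusted p = 0.000209). In all, 4 of the 9 had an unadjusted p under 0.05, and the 8 that were not called ran from −1.32 for Fgf21 and −1.05 for Angptl4 to −0.13 for Pck1, −0.063 for Igfbp1 and −0.032 for Cpt1a.

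The cholesterol synthesis genes, targets of the related factor SREBP-2, lay on the other side of 0: all 13 were above it (12 with library totals), with a median log2 fold change of 0.54 (0.25 without knockdown replicate 1), and 1 was called higher, Cyp51 at 0.66 ± 0.162 (SE; edgeR, adjusted p = 0.045), which lost its call in 5 of the 6 fits with 1 library left out, all but that without knockdown replicate 3. That call was also lost with limma voom, library totals or a minimum mean of 50 counts. Of the 13, 8 had an unadjusted p under 0.05 (23.4% of all genes tested), and DESeq2 called 3 (6.96% of its genes called). edgeR called 6 of the 13 with spike-in library sizes and 6 without knockdown replicate 3, where 3393 and 1881 genes were called in the whole table.

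**Figure D5:**
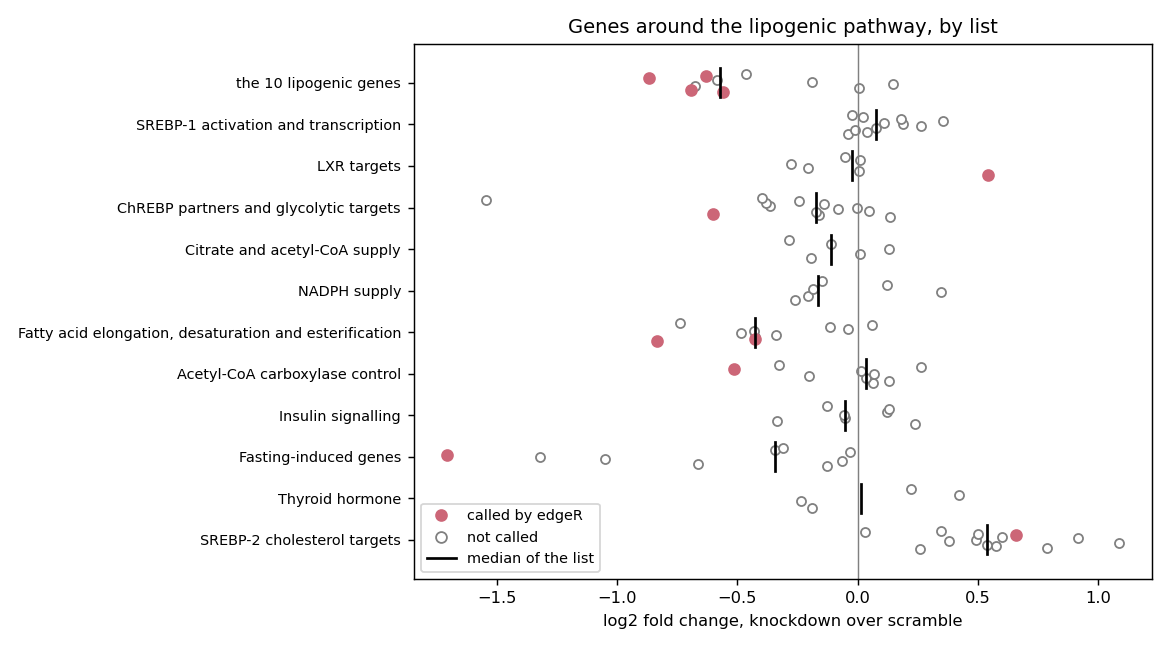
Log2 fold change (x axis, knockdown over scramble) of every tested gene in the 10 lipogenic genes and the 11 lists (y axis), filled red where edgeR called it, with the median of each list as a black line. The lipogenic genes have a median of −0.57, and the targets of SREBP-2 lie to the right of 0.

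Cells other than hepatocytes can carry these transcripts, and adipocytes also make fatty acids. Of 6 adipocyte markers 3 were tested and 1, Cfd, was called, lower, and their summed level was 22 to 32.8 TPM in the scramble and 13.6 to 19.2 TPM in the knockdown libraries. Of these markers, Adipoq had 3 to 22 raw counts per library, Plin1 2 to 10 and Lep 1 to 17, and Retn was at 0 in knockdown replicate 3. The others had more, Fabp4 61 to 115 and Cfd 23 to 64. Of 8 macrophage markers 3 were called, all higher (Adgre1, Clec4f and C1qa), with summed levels of 150.2 to 182 and 183 to 228 TPM. All 8 were above 0 and 7 had an unadjusted p under 0.05 (23.4% of all genes tested). DESeq2 called 3 of the 8 as well, with Marco in place of Adgre1. None of 5 endothelial, 6 stellate and 5 lymphocyte markers was called by edgeR or DESeq2, and 0, 1 and 0 of them had an unadjusted p under 0.05. The part of these shifts in the fall of the lipogenic genes was not tested.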

How the data were processed

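The authors trimmed reads with Trimmomatic, mapped them with STAR (GRCm38) and, with featureCounts, counted reads that mapped uniquely to exons. The labels name GRCm39 instead, and ribosomal RNA depletion where the methods name poly(A) selection. The deposited counts are raw whole numbers for 40895 features, and the deposited TPM values are the authors' length-scaled values over the same features. The authors' normalized counts and their table of fold changes and p-values were not used. Of 40803 mouse gene symbols, 91.9% matched RefSeq and 71% GENCODE on GRCm38, from which positions were taken by symbol.

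The 92 spike-in rows entered neither library sizes nor tests. In edgeR 4.0.16 (R 4.3.3), counts were scaled by TMM, filtered with filterByExpr and compared by robust quasi-likelihood tests with the group as the only term; standard errors are the log2 fold change over the root of the F value. DESeq2 1.42.0, limma 3.58.1, scipy 1.17.1 and matplotlib 3.10.9 were used for alternatives, exact tests and figures. Chi-square values per gene between libraries of a group were 7.73 to 31.9, where sampling noise gives about 1. The fit was tested on simulated data. The 10 genes, the lists and the tests were chosen with earlier results of these data known. Genes were named if they were among the 10, were called in a list (at most 6 a list) or were needed to describe a count of 5 or fewer there, or were among the 5 profiles nearest to Srebf1, Fasn and Scd1; the other list genes given were chosen after their values were seen. Some genes that this rule names are not reported here.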

Additional observations from a re-analysis of the deposited data

How the results depend on the processing

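Of 140 log2 fold changes of the 10 genes under 14 alternatives, 110 kept their direction and side of the limit, 11 gained and 11 lost a call, and 8 changed sign, none of them in a called gene. Slc25a1 changed sign with library totals (−0.066) and a minimum mean of 50 counts (−0.027), and ran from −0.062 to 0.087 with 1 library left out, Acaca from −0.050 to 0.24; Acacb was at 0.0069 with spike-in library sizes. The difference in the log2 ratio of Srebf1 to Mlxipl ran from −0.047 to 0.30 with 1 library left out. Of the 10 genes, 7 were called by DESeq2 and 7 without a filter on low counts (6.92% of genes called), and 0 to 6 with 1 library left out. Of the 93 list genes (7 called), DESeq2 called 12, spike-in sizes and no filter 16 each, and the fits with 1 library left out 1 (without scramble replicate 3 or knockdown replicate 2) to 18 (without knockdown replicate 3). Over the whole table (1032 called) spike-in sizes gave 3393, no filter 1902 and 1 library left out 103 (without scramble replicate 3) to 1881 (without knockdown replicate 3). Hnf1aos1 was called by DESeq2 (−0.74), limma voom (−0.77), edgeR without a filter (−0.74) and the replicate block (−0.77), and ran from −1.01 to −0.60 with 1 library left out. The cause was not tested. Same-numbered libraries did not deviate together (correlations of −0.0226 to 0.0231). Such values cannot decide whether the numbers pair the mice, since a pairing need not leave a shared deviation. With the replicate block 4 of the 10 genes and 5 of the 93 list genes were called, Elovl5 and Cyp51 no longer. Exact tests of 3 against 3 could not go below p = 0.1.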
